A study of Mus musculus with 12 samples.

Results

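The nuclear genes that encode the subunits of the mitochondrial respiratory chain and of the ATP synthase were followed through immunoprecipitations of the YTHDF proteins. Protein-coding genes were taken by symbol: those starting with Nduf and the letter a, b, c, s or v, the 4 Sdh subunit genes, those starting with Uqcr, those starting with Cox and a digit from 4 to 8, and those starting with Atp5. The rule gave 88 of the 55573 genes of the count table, and it read its names and biotypes from 16716 annotated genes. They were 37 complex I subunit genes, 8 complex I assembly factor genes (Ndufaf), which the prefix also takes and which encode no subunit of the finished complex, 4 genes of complex II, 8 of complex III, 13 of complex IV and 18 of the ATP synthase. Cox5b-ps and 1 of the entries named Atp5o are doubtful as separate genes: Cox5b-ps carries a pseudogene suffix, and the second Atp5o entry (ENSMUSG00000116933) is covered over 100% of its exonic length by Atp5o and Donson on the same strand.

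The respiratory chain in the inner mitochondrial membrane passes electrons from NADH (complex I) and succinate (complex II) through complex III and cytochrome c to oxygen at complex IV, and the ATP synthase uses the resulting proton gradient to make ATP, on which firing neurons depend. A few catalytic subunits are encoded by mitochondrial DNA, and the others, including all of complex II, come from nuclear genes whose mRNAs are translated outside the matrix. The YTHDF family are readers in the cytoplasm of N6-methyladenosine in mRNA, a base modification placed in the sequence context DRACH, of which GGACT is a common form.

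Primary hippocampal neurons from neonate C57BL/6 mice were kept for 14 days in culture, and RNA bound to the endogenous protein was recovered by RNA immunoprecipitation (RIP) with an antibody to YTHDF1, YTHDF2 or YTHDF3. RNA from a fraction of the same kind of lysate, with no antibody, was the input. There were 12 libraries, 3 in each of 4 groups (Input and the RIPs of each protein). All of them came from untreated wild-type cells of 1 strain, hippocampi of several pups were pooled, dividing cells were suppressed with a drug, and a precipitation with an unspecific antibody is not among the libraries used here. A RIP value is therefore a share of the recovered RNA relative to the share in the input, and not an amount bound.

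Total counts ran from 6020072 to 38909592 per library. Levels are given as CPM, counts per 1000000 counts of scaled library size, and differences as log2 fold changes with their standard error (SE) and an adjusted p from edgeR's quasi-likelihood test over 17126 genes with Benjamini-Hochberg adjustment. Enriched and depleted mean a log2 fold change of at least 0.32 in size against input, and higher and lower between RIPs mean at least 2-fold, all at an adjusted p of at most 0.05. All 88 genes passed the filter of a mean of 10 normalized counts, with means from 34.7 to 5950 and 78 of them at 100 or more. The study's methods call the 3 replicates biological, each a pool of wells, and the p-values measure the spread between them. YTHDF1 RIP replicate 2 stood apart, with a median of -1.65 over the 88 genes against the input mean on the log2 scale, where the other YTHDF1 RIP libraries had -2.58 and -2.85. The summed level of 6 astrocyte markers ran from 277.3 to 2645 CPM over the Input libraries and from 225.4 to 1732 over the YTHDF3 RIP libraries, while that of 7 neuronal markers was 2896 to 4755 CPM in input and 2283 to 8059 in the RIPs. Map2 had the highest level of the neuronal markers and was itself enriched in the YTHDF1 (1.49) and YTHDF3 RIPs (0.82). Of the other neuronal markers only Tubb3 was called, depleted in YTHDF2 RIPs (-1.43). A marker's level in a RIP library thus also depends on the recovery of its mRNA. Oligodendrocyte and microglial markers summed to at most 22.2 and 4.82 CPM. In bulk RNA, fewer cells of a type and less RNA per cell cannot be told apart, and the part of cell makeup in the results was not tested. The 37 mitochondrially encoded genes had a count of 0 in every library, so the chain is seen here through its nuclear genes alone.

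Coding sequences from the 2 ends of the range are shown for their difference in length. The most strongly depleted members encode very small proteins, and 3 of them are shown as whole coding sequences with the stop codon (GRCm38, GENCODE transcripts, minus strand). Capitals mark every DRACH match, with D = A, G or T, R = A or G and H = A, C or T. They are Atp5e (chr2:174462503-174463996, 159 bases over its exons), Uqcr10 (chr11:4702176-4704306, 195 bases) and Uqcrq (chr11:53429056-53430689, 249 bases).
Atp5e: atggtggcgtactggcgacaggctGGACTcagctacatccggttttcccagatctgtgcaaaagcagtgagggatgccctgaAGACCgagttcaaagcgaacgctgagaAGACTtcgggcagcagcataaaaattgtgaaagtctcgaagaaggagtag
Uqcr10: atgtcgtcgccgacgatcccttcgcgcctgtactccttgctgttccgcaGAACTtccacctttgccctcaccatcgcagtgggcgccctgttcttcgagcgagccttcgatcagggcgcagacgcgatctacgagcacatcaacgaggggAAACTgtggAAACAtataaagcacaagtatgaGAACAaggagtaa
Uqcrq: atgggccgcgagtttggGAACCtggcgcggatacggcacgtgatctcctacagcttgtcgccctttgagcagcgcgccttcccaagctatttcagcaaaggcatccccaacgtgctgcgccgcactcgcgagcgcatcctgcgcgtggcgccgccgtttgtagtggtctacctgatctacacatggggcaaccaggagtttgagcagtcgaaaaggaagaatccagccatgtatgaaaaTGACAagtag

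The 3 members enriched in at least 1 RIP, Ndufs1, Sdha and Ndufv1, have longer coding sequences (2184, 1995 and 1395 bases). Stretches of 25 coding bases around a GGACT, in capitals, are shown for Ndufs1 (chr1:63159837-63159861 and chr1:63149977-63150001), Sdha (chr13:74334315-74334339) and Ndufv1 (chr19:4008398-4008422), all on the minus strand of GRCm38. A match is a description of the letters and not a methylated site. Over whole mRNAs the number of GGACT does not part these genes, with 1 in Atp5e, 0 in Uqcr10 and 4 in Uqcrq, whose 3′UTR has 1134 bases, and with 2 in Ndufs1, 3 in Sdha and 1 in Ndufv1.
Ndufs1 first: tgcttatgatGGACTaaaacgtcaa
Ndufs1 second: tcacgcgacaGGACTtgccaaagga
Sdha: tgccttgccaGGACTtagaatttgt
Ndufv1: ccgtgctaatGGACTtcgatgcact

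The respiratory chain mRNAs were depleted from all 3 RIPs relative to input. In YTHDF1 RIPs 79 of the 88 genes were depleted and 2 enriched, where 25.8% and 27.2% of all genes tested were so called, and the median log2 fold change was -2.21, which is 4.63-fold lower, against 0.02 over all genes tested. In YTHDF2 RIPs 68 were depleted and 2 enriched, with 19.0% and 15.7% of all genes, and the median was -1.62 (3.08-fold lower) against 0.02. In YTHDF3 RIPs 83 were depleted and 1 enriched, with 23.0% and 16.4% of all genes, and the median was -2.66 (6.31-fold lower) against 0.05. Over the protein-coding genes tested alone, the medians were 0.12, 0.08 and 0.14. For 80, 77 and 84 members all 3 RIP libraries lay below all 3 Input libraries, which held for 28.0%, 27.5% and 29.1% of all genes. The same 67 members were depleted in every RIP, and the share of all genes depleted in every RIP was not computed. With Input and YTHDF3 RIP libraries paired by replicate number in a fit of their own, 2 members were enriched and 85 depleted, while the shares of all genes rose to 36.3% and 32.2%. When the trend of fold change with mRNA length over all genes was removed, a choice made after seeing the data, the medians shrank to -0.63, -0.68 and -0.99 and the depleted members to 47, 44 and 62, with 22.2%, 18.4% and 18.9% of all genes depleted. The enriched members then numbered 5, 3 and 3, with 19.6%, 11.8% and 9.44% of all genes enriched.

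**Figure D1:**
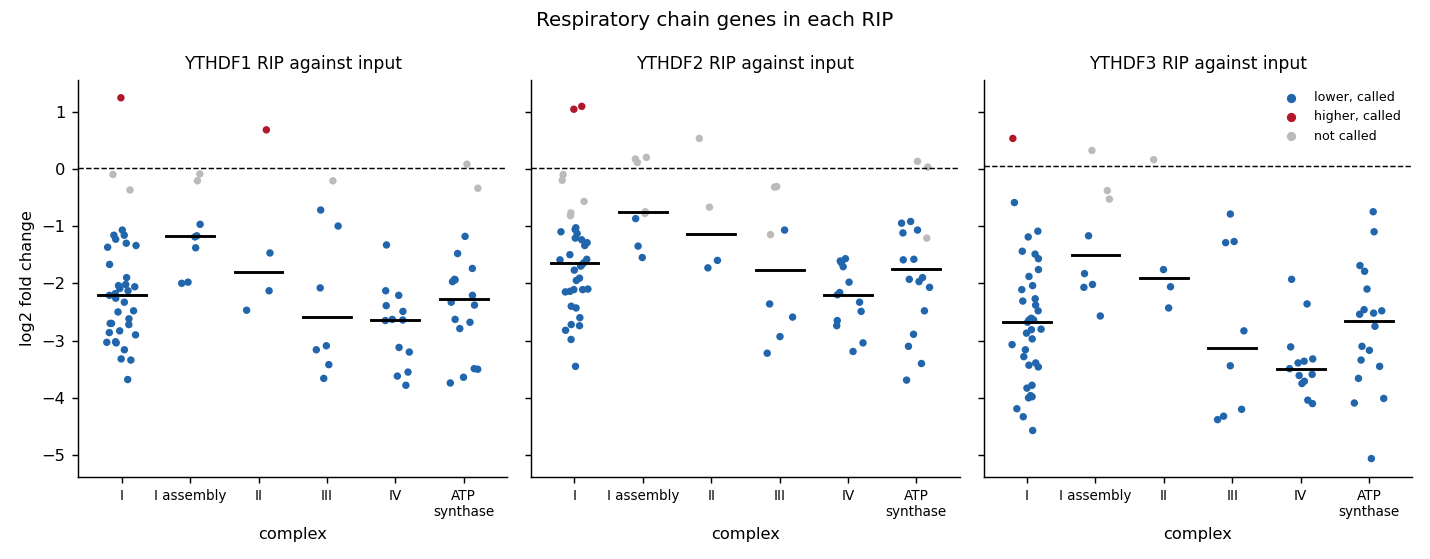
Log2 fold change against input (vertical axis) of each of the 88 genes, by complex (horizontal axis), with 1 panel for each RIP. Each point is a gene, coloured by its call, bars are medians of a set and the dashed line is the median of all genes tested; nearly all points lie below it, with Ndufs1, Sdha and Ndufv1 the only ones called above.

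In shares of sequencing, the 88 genes held 0.77 to 0.814% of protein-coding counts in the Input libraries. They held 0.145 to 0.19% in YTHDF1 RIPs, 0.346 to 0.405% in YTHDF2 RIPs and 0.173 to 0.188% in YTHDF3 RIPs, so the mean input share was 4.85, 2.14 and 4.45 times that of the RIPs. Atp5a1, Atp5b, Sdha and Ndufs1 made up 17.7 to 19.4% of the members' counts in input, but 45.0 to 58.5%, 41.0 to 44.3% and 44.1 to 47.0% in the 3 RIPs. None of these genes was depleted in the YTHDF1 or YTHDF2 RIPs, and in YTHDF3 RIPs none fell as far as the median member. Their larger share thus restates the fall of the other members and is not a separate result. The part of complex IV genes was 0.15 to 0.159% of protein-coding counts in input and 0.0064 to 0.0157% in YTHDF1 RIPs.

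**Figure D2:**
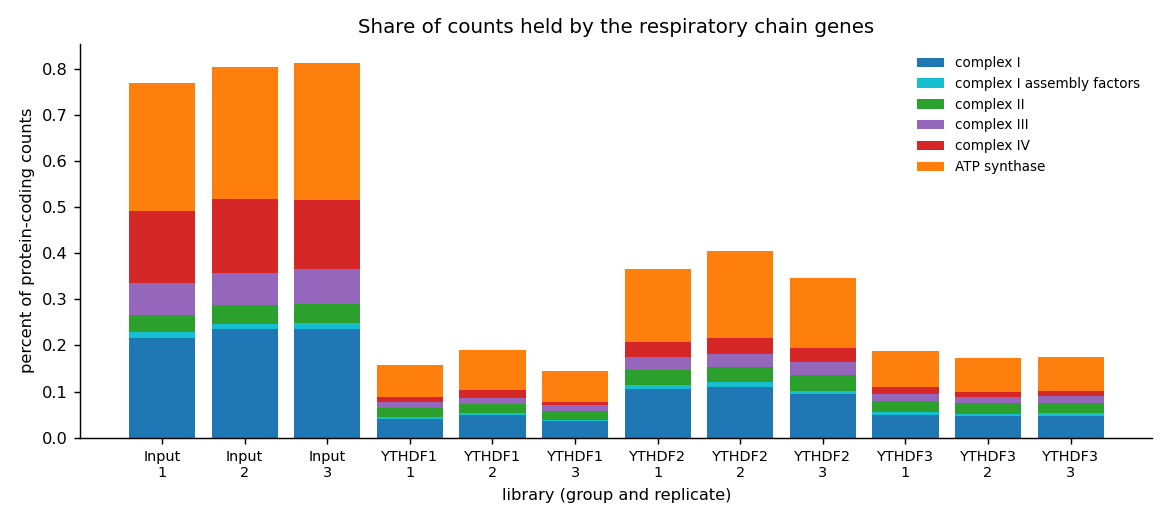
Percent of protein-coding counts (vertical axis) held by each complex's genes in each of the 12 libraries (horizontal axis), stacked from 0. The Input bars stand between 0.77 and 0.814%, and no RIP bar passes 0.405%.

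Complex I, the NADH dehydrogenase, has 7 nuclear genes for its catalytic core and 30 for accessory subunits that surround it. Its 37 genes had medians of -2.21, -1.64 and -2.68 in the 3 RIPs, given here and in what follows in numerical order, with 34, 30 and 36 depleted. The accessory genes had lower medians (-2.49, -1.73 and -2.92, with 30, 26 and 30 of 30 depleted) than the core genes (-1.37, -1.03 and -1.19, with 4, 4 and 6 of 7 depleted). The accessory genes also had shorter mRNAs, with a median of 704 bases against 1623 for the core genes. The difference between core and accessory genes, and the part of length in it, were not tested.

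Ndufs1, which encodes the largest core subunit and carries iron-sulfur clusters, was the only member enriched in every RIP. Its level was 50.9, 61.1 and 45.5 CPM in the Input libraries, 102.4, 128.9 and 140.5 in YTHDF1 RIPs, 112.7, 102.6 and 109.7 in YTHDF2 RIPs, and 76.8, 77 and 73.4 in YTHDF3 RIPs. Every RIP library lay above every Input library. The log2 fold changes were 1.24 (SE 0.17, adjusted p = 0.00012), 1.04 (SE 0.17, adjusted p = 0.00097) and 0.53 (SE 0.17, adjusted p = 0.026). The last call was lost without Input replicate 1 (0.51) or 3 (0.48) or without YTHDF3 RIP replicate 1 (0.52) or 2 (0.54), and the other calls held without any 1 library. The call in YTHDF3 RIPs was also lost with the trend on exonic length removed and with no filter on counts.

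Ndufv1, the core subunit that binds NADH and the flavin, was the member with the lowest adjusted p in the test of any difference among the 3 RIPs (8.5e-05). It was at 47.6, 49.9 and 48.9 CPM in input and at 36.0, 51.7 and 48.9 in YTHDF1 RIPs, so these groups overlapped (-0.10, SE 0.17, adjusted p = 0.65). In YTHDF2 RIPs it was at 111.8, 110.6 and 88.5 CPM, 2.12-fold above input (log2 1.09, SE 0.17, adjusted p = 0.00085). In YTHDF3 RIPs it was at 31.1, 31.5 and 34.4 CPM and depleted (-0.59, SE 0.17, adjusted p = 0.015), a call lost without YTHDF3 RIP replicate 2 (-0.55). The level in YTHDF2 RIPs was 3.21-fold that in YTHDF3 RIPs (adjusted p = 0.0016) and 2.27-fold that in YTHDF1 RIPs (adjusted p = 0.00044). With the mRNA-length trend removed, its value in YTHDF1 RIPs turned to 0.53 and the difference between the YTHDF1 and YTHDF2 RIPs, at -0.87, came under 2-fold.

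Ndufv2 and Ndufs7, further core subunits with iron-sulfur clusters, were depleted in every RIP. Ndufv2 fell from 73.0 ± 1.26 CPM (SD, n = 3) in input to 18 ± 6.02, 23.4 ± 3.24 and 13.1 ± 2.96, and Ndufs7 from 42.0 ± 7.31 to 11.3 ± 1.68, 9.77 ± 1.21 and 8.47 ± 1.66.

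Among the accessory subunits, Ndufb4 was at 56.4, 52.6 and 53.2 CPM in input and at 4.38, 6.78 and 1.67 in YTHDF1 RIPs, 12.9-fold lower (-3.68, SE 0.44, adjusted p = 5.4e-05). It was 7.04-fold lower in YTHDF2 RIPs and 16.0-fold lower in YTHDF3 RIPs. Ndufab1, the mitochondrial acyl carrier protein, was 7.12-, 4.32- and 4.83-fold below input. Both genes have near-identical copies elsewhere in the genome (1 and 2), to which reads may also have been assigned.

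Ndufa5, Ndufb5 and Ndufa2, also accessory subunits, differed between RIPs. Ndufa5 was at 38.9, 35.9 and 32.9 CPM in input, 4.5, 8.42 and 3.7 in YTHDF1 RIPs, 16.4, 24.5 and 10.8 in YTHDF2 RIPs and 3.54, 3.22 and 3.04 in YTHDF3 RIPs. Its YTHDF2 RIP libraries lay above all those of the other RIPs, 3.11-fold over YTHDF1 (adjusted p = 0.004) and 5.25-fold over YTHDF3 (adjusted p = 0.0044). Its depletion from YTHDF2 RIPs (-1.06, SE 0.32, adjusted p = 0.025) was lost without Input replicate 1 (-1.0) or 2 (-1.06) or YTHDF2 RIP replicate 1 (-1.03) or 3 (-0.82).

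Ndufb5 was lowest in YTHDF1 RIPs. It had 37.0, 35.9 and 29.9 CPM in input, 3.92, 6.21 and 2.61 in YTHDF1 RIPs, 15.6, 11.9 and 16.0 in YTHDF2 RIPs and 11.9, 8.59 and 7.41 in YTHDF3 RIPs. It was the only member called lower in YTHDF1 than in YTHDF3 RIPs (-1.14, SE 0.30, adjusted p = 0.018), a call lost without YTHDF1 RIP replicate 3 (-0.86) or YTHDF3 RIP replicate 1 (-0.93), and it was 3.44-fold lower in YTHDF1 than in YTHDF2 RIPs (adjusted p = 0.0013). Ndufa2 was lowest in YTHDF3 RIPs, at 1.67, 1.37 and 1.49 CPM, against 6.92, 9.77 and 2.94 in YTHDF1 RIPs, 6.12, 7.02 and 8.83 in YTHDF2 RIPs and 24.5, 28.3 and 30.1 in input. It was 4.27-fold higher in YTHDF1 RIPs (adjusted p = 0.0022) and 4.84-fold higher in YTHDF2 RIPs (adjusted p = 0.0073) than in YTHDF3 RIPs.

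The 8 complex I assembly factors, chaperones that leave before the complex is finished, had medians of -1.18, -0.76 and -1.50, and 6, 3 and 5 of them were depleted. Ndufaf7, a methyltransferase, was called in no RIP, with 16.2 ± 2.39 CPM in input and 15.3 ± 1.92, 18.7 ± 2.11 and 20.2 ± 2.64 in the RIPs (SD, n = 3). With the mRNA-length trend removed, its value in YTHDF1 RIPs turned from -0.09 to 0.47, and with the replicate block in a fit of Input and YTHDF3 RIP alone it was called enriched there (0.37). The other gene called in no RIP was Ndufaf1, named here after its values were seen, with 6.87 ± 0.432 CPM in input and 5.91 ± 0.831, 7.74 ± 1.09 and 4.77 ± 0.41 in the RIPs. Its value in YTHDF3 RIPs, -0.53 (adjusted p = 0.054), was called without YTHDF1 RIP replicate 1 (-0.53) and with that block (-0.47), and its value in YTHDF1 RIPs turned from -0.21 to 0.62 with the mRNA-length trend removed. Ndufaf4 was the one member depleted in YTHDF1 (-0.97, SE 0.18, adjusted p = 0.001) and YTHDF2 RIPs (-0.87, SE 0.18, adjusted p = 0.0042) and not called in YTHDF3 RIPs (-0.38, SE 0.18, adjusted p = 0.11), where it was at 17.7, 12.4 and 12.5 CPM against 19.7, 17.4 and 18.4 in input. Its depletion was called there without YTHDF3 RIP replicate 1 (-0.57) and with the block (-0.34).

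In complex II, the succinate dehydrogenase that also works in the tricarboxylic acid cycle, the flavoprotein gene stood apart from the other three. Sdha, which holds the succinate site, was at 130.9, 132.3 and 105.0 CPM in input, 165.8, 188.5 and 236.3 in YTHDF1 RIPs, 180.9, 160.4 and 189.2 in YTHDF2 RIPs and 157.6, 138.7 and 115.4 in YTHDF3 RIPs. All YTHDF1 and YTHDF2 RIP libraries lay above input, and YTHDF3 RIPs overlapped it. Sdha was enriched in YTHDF1 RIPs (0.68, SE 0.19, adjusted p = 0.01), a call lost without Input replicate 3 (0.48), and its value in YTHDF2 RIPs sat at the threshold (0.53, SE 0.19, adjusted p = 0.050) without passing it. That value was called without any 1 YTHDF1 RIP library (0.51 to 0.53) or without YTHDF3 RIP replicate 3 (0.53). The calls of Sdha and Ndufs1 in YTHDF1 RIPs did not both hold when scaled by library size alone or over protein-coding genes. Nor did both hold with no filter or in a fit of Input and YTHDF1 RIP alone.

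Sdhb, the iron-sulfur subunit, had 43.6, 45.2 and 63.9 CPM in input, 13.6, 26.8 and 14.5 in YTHDF1 RIPs, 31.8, 28.8 and 35.1 in YTHDF2 RIPs and 17.2, 14.4 and 13.4 in YTHDF3 RIPs. It was depleted in the YTHDF1 (-1.47, SE 0.27, adjusted p = 0.00079) and YTHDF3 RIPs (-1.76, SE 0.27, adjusted p = 0.00039). In YTHDF2 RIPs the value was -0.67 (adjusted p = 0.067), and it passed without YTHDF1 RIP replicate 2 (-0.69). The membrane anchors Sdhc and Sdhd were depleted in every RIP, from 46.9 ± 5.41 CPM (SD, n = 3) in input to 8.48 ± 2.44, 14.1 ± 2.40 and 8.68 ± 0.725 for Sdhc and from 26.4 ± 2.05 to 5.96 ± 2.08, 8.69 ± 1.32 and 6.34 ± 0.29 for Sdhd.

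Complex III hands electrons from ubiquinol to cytochrome c. Its 8 genes had medians of -2.59, -1.76 and -3.13, with 7, 5 and 8 depleted. Uqcrc1, a core protein without a redox centre, was at 89.7, 86.9 and 90.7 CPM in input, 58.9, 82.1 and 89.5 in YTHDF1 RIPs, 66.5, 70.3 and 78.4 in YTHDF2 RIPs and 61.6, 49.6 and 43.8 in YTHDF3 RIPs. It was called in YTHDF3 RIPs (-0.79, SE 0.19, adjusted p = 0.0063) and not in the YTHDF1 (-0.21, adjusted p = 0.36) or YTHDF2 RIPs (-0.31, adjusted p = 0.22). The second core protein, Uqcrc2, was depleted in every RIP (-0.72, -1.07 and -1.27). Uqcrfs1, the Rieske iron-sulfur protein, was 2.0-fold lower in YTHDF1 RIPs (adjusted p = 0.00052) and 2.44-fold lower in YTHDF3 RIPs (adjusted p = 0.00017), and its value in YTHDF2 RIPs was -0.32 (adjusted p = 0.17).

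The small subunits Uqcrq and Uqcr10, shown above, had far larger changes. Uqcrq was at 106.3, 105.6 and 123.6 CPM in input, 7.38, 15.8 and 8.01 in YTHDF1 RIPs, 18.1, 17.3 and 20.3 in YTHDF2 RIPs and 6.96, 5.26 and 4.53 in YTHDF3 RIPs. No RIP library came near the lowest Input library, and the folds were 10.7, 6.01 and 20.0. Uqcr10 was 12.7-, 9.34- and 20.8-fold lower, from 23.1 ± 1.83 CPM (SD, n = 3) in input to 1.89 ± 0.918, 2.46 ± 0.486 and 1.11 ± 0.514.

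All 13 genes of complex IV, the cytochrome c oxidase, were depleted in every RIP, with medians of -2.64, -2.20 and -3.49. Its mitochondrially encoded catalytic core was not measured, and these genes encode the subunits around it. Cox4i1, a regulatory subunit that binds ATP, was at 110.5, 117.5 and 140.7 CPM in input, 15.7, 32.4 and 11.4 in YTHDF1 RIPs, 41.3, 42.3 and 37.5 in YTHDF2 RIPs and 10.5, 8.37 and 8.56 in YTHDF3 RIPs. No groups overlapped. It was 6.21-fold (SE 0.33 on the log2 scale, adjusted p = 6.7e-05), 3.04-fold (SE 0.31, adjusted p = 0.0026) and 13.4-fold (SE 0.34, adjusted p = 3.4e-05) below input. It was 4.41-fold higher in YTHDF2 than in YTHDF3 RIPs (adjusted p = 0.0056), which held without any 1 library. It was also 2.04-fold lower in YTHDF1 than in YTHDF2 RIPs (adjusted p = 0.03), lost without YTHDF1 RIP replicate 1 (-0.89) or 3 (-0.74) or any 1 YTHDF2 RIP library (-1.08 to -0.99). The third pair was 2.16-fold higher in YTHDF1 than in YTHDF3 RIPs (adjusted p = 0.026), lost without Input replicate 3 (0.95), YTHDF1 RIP replicate 2 (0.44) or YTHDF3 RIP replicate 2 (1.03) or 3 (1.06).

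Cox6c, the complex IV gene with the most counts, went from 269.8, 252.3 and 198.9 CPM in input to 14.6, 34.3 and 9.64 in YTHDF1 RIPs, 45.5, 44.9 and 37.8 in YTHDF2 RIPs and 25.9, 14.8 and 14.3 in YTHDF3 RIPs. It was 12.3-, 5.63- and 13.1-fold lower. Cox7b had the lowest fold change of all members in YTHDF1 RIPs, from 92.6, 81.9 and 67.4 CPM to 6.69, 7.92 and 3.23 (13.7-fold lower, log2 -3.78, SE 0.38, adjusted p = 2.1e-05). Cox5a, Cox5b, Cox6a1, Cox7a2 and Cox8a were 4.62- to 11.7-fold lower in YTHDF1 RIPs, 3.11- to 8.21-fold in YTHDF2 RIPs and 8.62- to 17.1-fold in YTHDF3 RIPs. Cox7a2l, which takes part in supercomplexes of the chain rather than in the oxidase alone, had smaller changes (-1.33, -1.57 and -1.93, SE 0.15 each). Paralogs of these genes used mainly in other tissues, such as muscle and testis, were close to absent, the highest count of any of 8 such genes being 25, for Cox6a2.

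The 18 ATP synthase genes had medians of -2.27, -1.75 and -2.65, with 16, 15 and 18 depleted. Atp5a1 and Atp5b, the alpha and beta subunits of the catalytic head, were not called in the YTHDF1 and YTHDF2 RIPs, nor was Atp5k in YTHDF2 RIPs. Atp5a1 was at 428.1, 405.0 and 355.9 CPM in input, 325.1, 456.8 and 471.3 in YTHDF1 RIPs and 404.3, 456.1 and 443.3 in YTHDF2 RIPs, which overlapped, and at 266.0, 224.7 and 215.1 in YTHDF3 RIPs, below all others. Its log2 fold changes were 0.08 (SE 0.19, adjusted p = 0.76), 0.13 (SE 0.19, adjusted p = 0.61) and -0.75 (SE 0.19, adjusted p = 0.0077). Atp5b was at 369.8, 369.8 and 375.9 CPM in input, 218.6, 361.1 and 300.9 in YTHDF1 RIPs, 355.4, 429.7 and 354.3 in YTHDF2 RIPs and 183.3, 173.3 and 163.1 in YTHDF3 RIPs. It was 2.15-fold lower in YTHDF3 RIPs (-1.10, SE 0.19, adjusted p = 0.001), and its value in YTHDF1 RIPs, -0.34 (adjusted p = 0.16), became a call without YTHDF1 RIP replicate 2 (-0.59).

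The other head subunits moved with the rest of the chain. Atp5c1, the gamma subunit of the rotor, fell from 95.7 ± 4.48 CPM (SD, n = 3) to 28.7 ± 15.7, 44.1 ± 3.31 and 27.7 ± 4.87, and its call in YTHDF2 RIPs (-1.12, adjusted p = 0.014) was lost without YTHDF2 RIP replicate 3 (-1.06). Atp5d, the delta subunit, fell from 104.5 ± 5.76 to 22.5 ± 2.11, 26.7 ± 5.30 and 18.2 ± 4.20 CPM. Atp5e, the epsilon subunit and the shortest of the head, had 296, 316 and 320 counts in the Input libraries against 22, 38 and 26 in YTHDF1 RIPs, 7, 17 and 24 in YTHDF2 RIPs and 20, 19 and 27 in YTHDF3 RIPs. In CPM these were 22.5, 23.1 and 34.3 in input, 2.54, 2.71 and 0.943, then 0.931, 2.54 and 2.68, and then 0.778, 0.703 and 0.893, so Atp5e was 13.3-, 12.9- and 33.3-fold lower. The last was the lowest fold change of any member in any RIP (log2 -5.06, SE 0.46, adjusted p = 3.4e-05).

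Atp5g1, Atp5g2 and Atp5g3 encode the same mature subunit c of the membrane ring with different import sequences, and all 3 were depleted in every RIP. Atp5g1 was 6.92-, 5.57- and 6.73-fold lower, Atp5g2 5.03-, 4.20- and 8.99-fold and Atp5g3 3.81-, 2.10- and 5.52-fold. The call for Atp5g3 in YTHDF2 RIPs was lost without YTHDF2 RIP replicate 2 (-1.0) or 3 (-0.95), and its value there turned to 0.10 with the mRNA-length trend removed. Atp5md, a small membrane subunit, had like values in the 3 RIPs (-3.49, -3.40 and -3.45, SE 0.41 to 0.42). Atp5g1, Atp5g2 and Atp5md have near-identical copies elsewhere in the genome (1, 2 and 1), to which reads may also have been assigned. Atp5k, the e subunit at the dimer interface, was scattered within YTHDF1 RIPs, with 4.96, 15.6 and 2.03 CPM against 21.2, 19.8 and 21.8 in input, 9.84, 10.5 and 6.82 in YTHDF2 RIPs and 1.71, 1.52 and 1.72 in YTHDF3 RIPs. Its depletion from YTHDF3 RIPs (-3.66, SE 0.58, adjusted p = 0.0005) held without any 1 library. Its depletion from YTHDF1 RIPs (-1.48, SE 0.53, adjusted p = 0.033) did not hold without Input replicate 1 (-1.48) or 2 (-1.52) or without YTHDF1 RIP replicate 1 (-1.27) or 3 (-1.01), and its value there turned to 0.66 with the mRNA-length trend removed. In YTHDF2 RIPs it was -1.21 (adjusted p = 0.097), called without YTHDF1 RIP replicate 2 (-1.23) or 3 (-1.21).

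**Figure D3:**
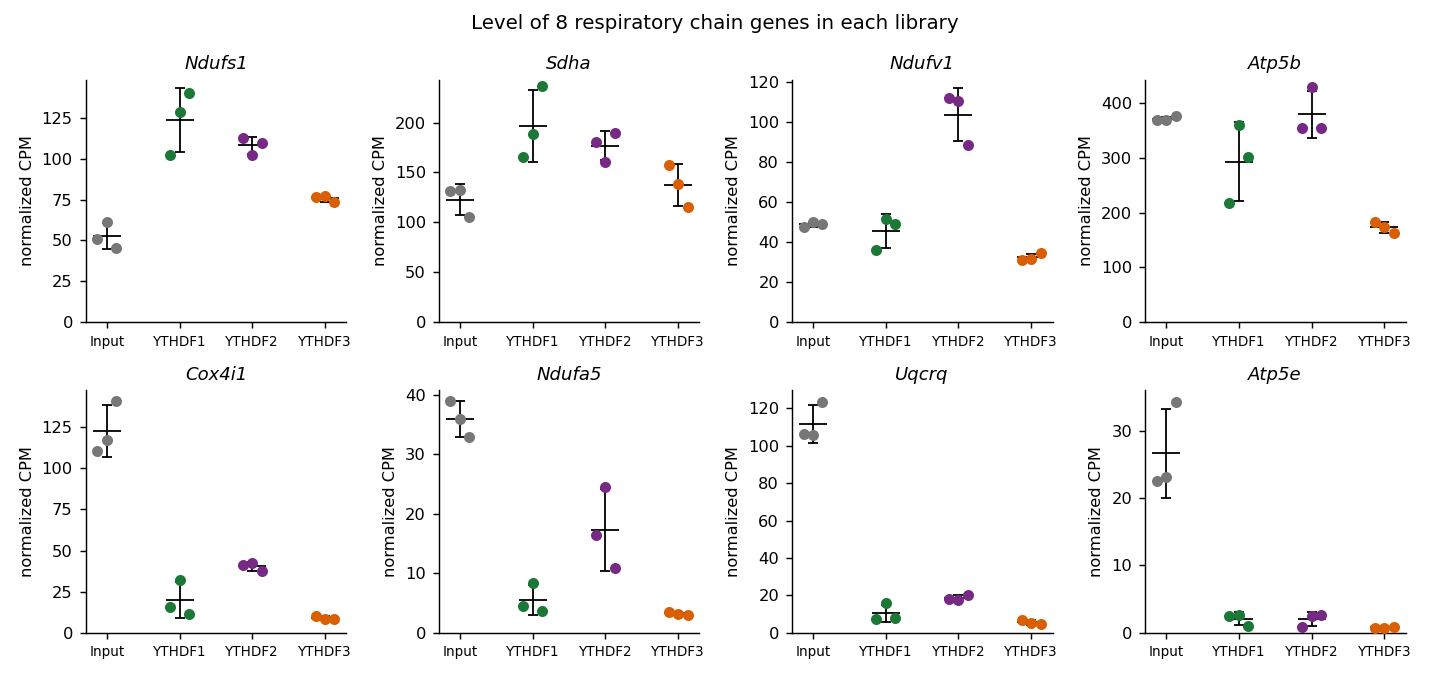
Normalized CPM (vertical axes, linear from 0, a scale for each gene) of 8 genes in each of the 12 libraries, by Input and RIP (horizontal). Each point is a library, horizontal lines are group means and whiskers 1 SD (n = 3); Ndufs1 rises from input in every RIP, whereas Uqcrq and Atp5e fall in every RIP.

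Which mRNAs of the chain were most abundant therefore differed between input and RIP. Per kb of exonic length in the count table, and leaving aside the second Atp5o entry, which shares its reads, the highest levels in input were 126.4 ± 11.8 CPM per kb for Atp5a1 (SD, n = 3), 107.7 ± 10.8 for Cox8a and 101.4 ± 5.39 for Cox6a1, and those of the latter pair did not differ beyond their spread. In every RIP the order was Atp5a1, Atp5b and Sdha, with 133.2 ± 25.7, 69.3 ± 16.9 and 47.7 ± 8.72 CPM per kb in YTHDF1 RIPs, 138.6 ± 8.61, 89.6 ± 10.2 and 42.9 ± 3.60 in YTHDF2 RIPs and 75.1 ± 8.62, 40.9 ± 2.39 and 33.3 ± 5.12 in YTHDF3 RIPs. Sdha moved from rank 40 of the 88 in input to rank 3 in every RIP, and Ndufs1 from rank 79 to 11, 27 and 13. These orders hold for that exonic length alone. For some short mRNAs it far exceeds the mRNA itself, as for Atp5l (6443 against 544 bases) and Atp5mpl (1217 against 366), which lowers their rank. Levels per kb of mRNA were not computed.

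The 3 RIPs share the same Input libraries, so their values against input are not independent, and the RIPs were also compared with each other. Members called between YTHDF2 and YTHDF3 RIPs were all lower in the latter: 30 members were higher in YTHDF2 RIPs and 0 lower, where 3.95% and 1.16% of all genes were so called, and the median was 1.09 against 0.07 over all genes. The 30 were 13 of complex I, 1 assembly factor, 1 of complex II, 3 of complex III, 6 of complex IV and 6 of the ATP synthase. Without 1 YTHDF2 RIP library the 30 became 17, 16 or 17, with 2.11, 1.34 or 1.97% of all genes so called. Without YTHDF3 RIP replicate 2 or 3 they became 9 or 10, with 0.642 or 1.2% of all genes, and with the mRNA-length trend removed 11, with 2.83% of all genes and a median of 0.45.

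Fewer members separated YTHDF1 RIPs from the others. Against YTHDF2 RIPs, 7 members were lower in YTHDF1 RIPs (6.10% of all genes) and 0 higher (11.4%), with a median of -0.51 against 0.03. Against YTHDF3 RIPs, 9 were higher in YTHDF1 RIPs (10.8%) and 1 lower (3.63%), with a median of 0.55 against 0.19. The shares of members called, 7.95% lower and 10.2% higher, lie near those of all genes. They also turned on single libraries. Without YTHDF1 RIP replicate 2, 43 members were lower than in YTHDF2 RIPs (11.5% of all genes), 1 was higher than in YTHDF3 RIPs (8.12%) and the median against YTHDF3 RIPs was 0.02. Without YTHDF1 RIP replicate 1 or 3 or YTHDF2 RIP replicate 2, the members lower than in YTHDF2 RIPs became 3, 4 and 4 (6.37, 4.64 and 4.59% of all genes). Against YTHDF3 RIPs, the members higher in YTHDF1 RIPs became 24 without YTHDF1 RIP replicate 3 (11.8% of all genes), 3 without Input replicate 3 (8.31%), and 2 and 1 without YTHDF3 RIP replicate 2 and 3 (6.94 and 7.94%). A test of any difference among the 3 RIPs passed for 47 of the 88, against 32.3% of all genes, 19 of them in complex I. The fold change against input was lowest in YTHDF3 RIPs for 73 members and in YTHDF1 RIPs for 15, and the same count over all genes was not computed. Scaling by library size alone moved the median of all genes for YTHDF1 against YTHDF3 from 0.19 to -0.54 and that of the members from 0.55 to -0.21.

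**Figure D4:**
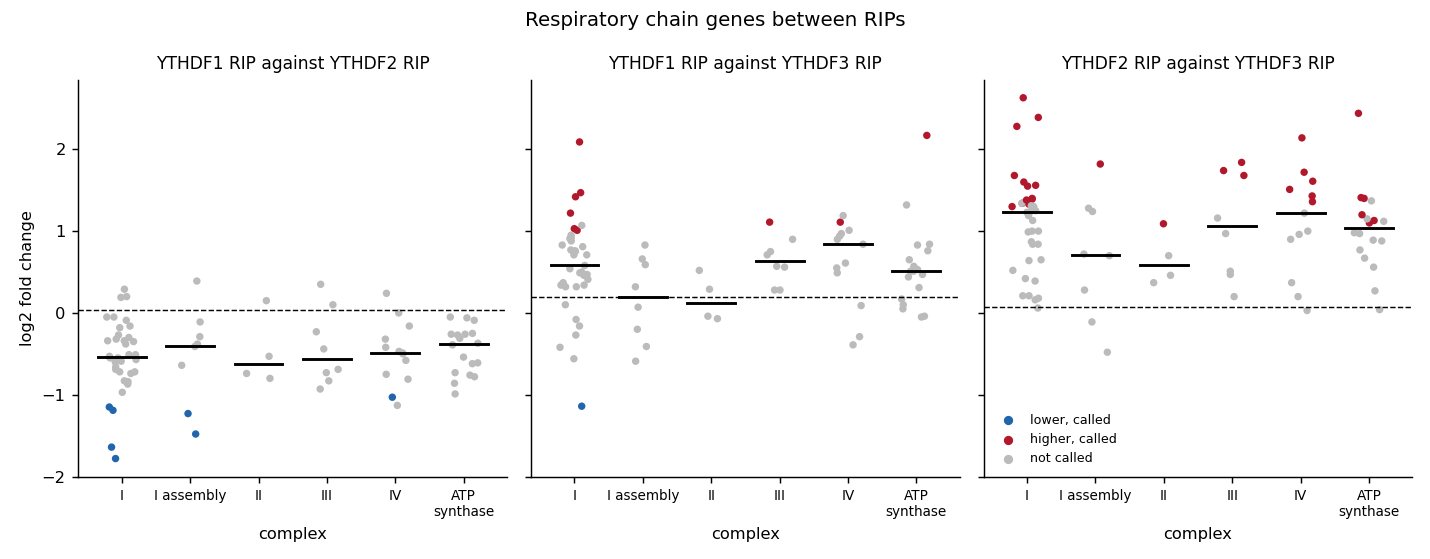
Log2 fold change between pairs of RIPs (vertical axis) of each of the 88 genes, by complex (horizontal axis). Points are genes, coloured by call, bars are set medians and the dashed line is the median of all genes tested; 30 points are called higher in YTHDF2 than in YTHDF3 RIPs and none lower.

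Apart from the 67 depleted everywhere, 11 members were depleted in the YTHDF1 and YTHDF3 RIPs and not called in YTHDF2 RIPs, among them Sdhb, Uqcrfs1 and Atp5k, and 4 were depleted in YTHDF3 RIPs alone, among them Atp5a1, Atp5b and Uqcrc1. The shares of all genes with these patterns of calls were not computed. For the genes named, the differences between the RIPs did not all pass. Uqcrc1 differed between YTHDF2 and YTHDF3 RIPs by 0.47 (adjusted p = 0.14) and between YTHDF1 and YTHDF3 RIPs by 0.57 (adjusted p = 0.049). Between YTHDF1 and YTHDF2 RIPs the values were -0.27 for Atp5k (adjusted p = 0.76), -0.80 for Sdhb (adjusted p = 0.043) and -0.69 for Uqcrfs1 (adjusted p = 0.011), all under 2-fold. For Atp5b YTHDF2 RIPs were 2.19-fold above YTHDF3 RIPs (adjusted p = 0.0088), a call lost without YTHDF3 RIP replicate 2 (1.12 on the log2 scale). For Sdhb they were 2.13-fold above (adjusted p = 0.031), a call lost without Input replicate 2 or any 1 of the YTHDF2 or YTHDF3 RIP libraries (1.01 to 1.20). For Atp5a1 they were 1.85-fold above (adjusted p = 0.019) and for Uqcrfs1 1.96-fold (adjusted p = 0.0094), which pass the test and stay under 2-fold. The last came over 2-fold without YTHDF2 RIP replicate 2 (1.09 on the log2 scale) or YTHDF3 RIP replicate 1 (1.00). Atp5k was 5.44-fold higher in the YTHDF2 (adjusted p = 0.026) and 4.51-fold higher in the YTHDF1 (adjusted p = 0.017) than in YTHDF3 RIPs. The first of its calls was lost without any 1 of the YTHDF2 or YTHDF3 RIP libraries (2.33 to 2.61), and the second without YTHDF1 RIP replicate 2 (0.89) or YTHDF3 RIP replicate 2 (2.09) or 3 (2.20).

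The members share short mRNAs, which the rule did not use. For the 87 with a transcript, the median mRNA had 809 bases, with 438 coding bases and 4 exons, against 3102, 1428 and 9 for the protein-coding genes tested, and 60.9% of the members' mRNAs were under 1000 bases against 6.02%. Their 3′UTRs had a median of 155 bases against 1046. By set, the median mRNA had 812 bases in complex I, 1308 in its assembly factors, 2066 in complex II and 955 in complex III. In complex IV it had 618 bases and in the ATP synthase 770. The part of length in the differences between complexes was not tested. The letters of the methylation context had a median of 19.8 DRACH matches per kb of mRNA against 20.1, searched on the sense strand. GGACT matches numbered 1 per mRNA against 3 (0.812 against 1.04 per kb), and 39.1% of member mRNAs, 34 of 87, held none against 8.12%.

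Across members, the log2 fold change rose with coding length, with a Spearman rho of 0.71, 0.70 and 0.75 over 87 genes in the 3 RIPs in numerical order, against 0.61, 0.58 and 0.67 over 13418 protein-coding genes. These points share libraries, and the values are descriptions. For DRACH per kb the rho over members was 0.15, 0.09 and 0.19, and for GGACT per kb -0.09, -0.14 and -0.13. For the input level per kb, which shares its Input libraries with the fold change, it was -0.31, -0.3 and -0.45. For mRNAs under 700 bases, the 17 members without GGACT had medians of -2.65, -2.16 and -3.45 and the 18 with 1 or more had -2.67, -2.18 and -3.42. From 700 to under 1500 bases, the 13 without had -1.47, -1.03 and -2.31 and the 20 with had -2.1, -1.59 and -2.59. At 1500 bases or more, the 4 without had -1.19, -0.84 and -1.53 and the 15 with had -0.72, -0.87 and -1.19. The direction varied between the classes, and no difference was tested.

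**Figure D5:**
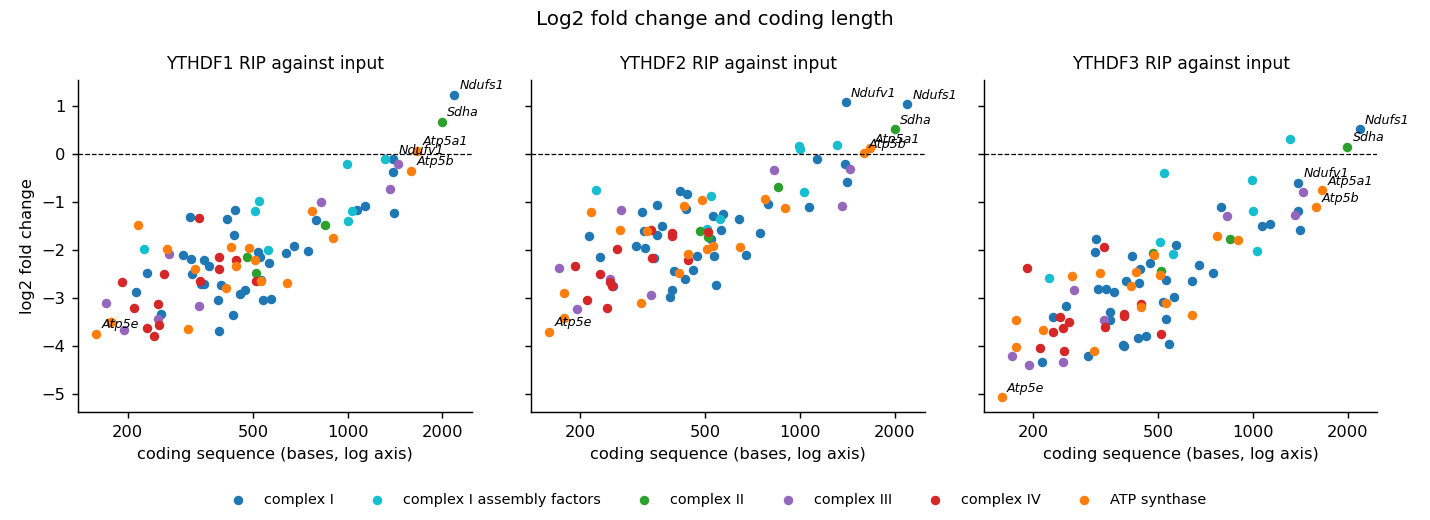
Log2 fold change against input (vertical axis) and coding length in bases on a log axis (horizontal) for the 87 members with a transcript, with 1 panel for each RIP. Each point is a gene, coloured by complex, and the dashed line is no change; the values rise with length, with Ndufs1 and Sdha at the long end.

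Within classes of mRNA length, members had lower medians than the other protein-coding genes. Lengths were not matched within a class, the longest class has no upper bound, and coding length was not held fixed. The part of length in these differences was not tested. Under 700 bases, 35 members had medians of -2.65, -2.16 and -3.44 against -1.63, -1.0 and -2.19 for 297 other genes. From 700 to under 1500 bases, 33 members had -2.0, -1.35 and -2.48 against -1.17, -0.70 and -1.12 for 1555 genes. At 1500 bases or more, 19 members had -0.97, -0.87 and -1.27 against 0.30, 0.19 and 0.26 for 11479 genes.

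Other genes of mitochondrial energy metabolism, from lists chosen by function, were also followed, and those named were chosen after their values were seen. Of all genes tested, 25.8, 19.0 and 23.0% were depleted and 27.2, 15.7 and 16.4% enriched in the 3 RIPs. Cyc1, the cytochrome c1 gene of complex III that the prefixes miss, was depleted in every RIP (-1.03, -1.15 and -1.49, SE 0.18 each), and so was Cycs, the somatic cytochrome c (-2.57, -2.57 and -3.54). Of 16 genes of the tricarboxylic acid cycle and pyruvate dehydrogenase, 7, 6 and 10 were depleted and 2, 0 and 0 enriched, with medians of -0.41, -0.50 and -0.77. The matrix enzyme Mdh2 fell from 188.4 ± 13.7 CPM (SD, n = 3) to 109.4 ± 21.8, 96.3 ± 17 and 61.0 ± 13.8, though its value in YTHDF1 RIPs came to 0.04 with the mRNA-length trend removed. Of 8 carriers and pores, 6, 6 and 5 were depleted, among them the adenine nucleotide carrier Slc25a4 (-0.75, -0.88 and -1.35).

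Of 32 assembly genes for complexes II to V, 19, 13 and 15 were depleted and 3, 1 and 1 enriched. They spanned the widest range, from Uqcc2, an assembly factor of complex III (-3.74, -3.11 and -3.97), to Pet117, an assembly factor of complex IV, which rose from 2.97, 2.12 and 2.89 CPM in input to 11.4, 7.42 and 13.4 in YTHDF1 RIPs (2.02, SE 0.27, adjusted p = 0.0001). Pet117 was also enriched in the YTHDF2 (1.92) and YTHDF3 RIPs (1.04), and its mRNA is short, with 693 bases. Of 14 regulators of mitochondrial gene expression, 8, 7 and 6 were enriched and 3, 1 and 0 depleted, with medians of 0.65, 0.43 and 0.71. Ppargc1a, a coactivator that drives transcription of respiratory genes, was at 52.7, 51.8 and 25.9 CPM in input and 131.9, 157.7 and 304.0 in YTHDF1 RIPs (2.18, SE 0.44, adjusted p = 0.0015), and its values were 0.18 (adjusted p = 0.77) and 0.81 (adjusted p = 0.15) in the YTHDF2 and YTHDF3 RIPs. Its relative Pprc1 was enriched in every RIP (1.82, 1.02 and 1.22, SE 0.17 each), and so was Twnk, the mitochondrial DNA helicase (1.82, 1.28 and 1.02). Ppargc1a, Pprc1 and Twnk have long mRNAs, of 6464, 5246 and 3488 bases. Of protein-coding genes outside the members with mRNAs of 1500 bases or more, 34.0, 20.0 and 22.1% were enriched. The part of length in the values of the regulators was not tested.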

How the data were processed

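RIP-seq was performed on lysates of cultured mouse hippocampal neurons with antibodies to YTHDF1, YTHDF2 and YTHDF3, and the lysate without antibody was the input (3 libraries in each of 4 groups, grouped by title). Per the study's methods, for each replicate the lysate of pooled wells was split among the RIPs, with 1 shared input. The authors deposited raw counts per gene. Molecular identifiers were removed with UMI-tools 1.1.1, reads trimmed with cutadapt 3.4, aligned to mm10 with STAR 2.7.7a and counted with featureCounts 2.0.1, per the submitters' processing notes and the file header, by strand. Multi-mapping reads and reads over overlapping genes were counted for each gene without division, so members with near-identical copies or shared exons are uncertain (16 and 6). Further deposited tables hold the authors' own fold changes and p-values and were used only for gene names and biotypes. 0 columns of the count table were unmatched to a sample.

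Counts were analysed in R 4.3.3 with edgeR 4.0.16 (glmQLFit and glmQLFTest, 1 fit of all 12 libraries, TMM scaling, genes with a mean of at least 10 normalized counts, no replicate block), with Benjamini-Hochberg adjustment over 17126 genes. CPM are counts per 1000000 of TMM-scaled library size. The scripts were tested on simulated counts. DESeq2 1.42.0 and other scalings, filters, fits of 2 groups, replicate blocks, length corrections and fits without each library were alternatives. mRNA lengths and sequences came from GENCODE M21 (GRCm38), which gave a transcript for 87 of the 88 genes and none for Ndufb1. Named genes were a set chosen by role, the 3 highest and 3 lowest members against each input and the 2 at each end between RIPs, among members with a mean of 100 or more normalized counts. The members and lists were chosen with earlier results of these data known. Members without values of their own in the text are in its counts and medians, and 1 member that the rule named is not reported here. Total counts of 6020072 to 38909592 per library left at least 6 counts behind every member's value, and errors are between libraries.

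Whether equal replicate numbers pair the libraries was checked by correlating deviations from group means over all genes tested. Input and YTHDF3 RIP libraries of equal number correlated at 0.83, 0.53 and 0.80, so these groups are paired. No other pair of groups had all its correlations above 0.1, and YTHDF1 against YTHDF2 RIPs had 0.06, 0.54 and 0.35. Replicate 2 of the YTHDF1 and YTHDF2 RIPs correlated with Input replicate 3 (0.47 and 0.56) and YTHDF3 RIP replicate 3 (0.43 and 0.55). By the study's methods the groups share lysates, so this does not show that the other groups are unpaired. Whether the numbering follows the lysates was not tested.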

Additional observations from a re-analysis of the deposited data

How the results depend on the processing

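Of the values computed under alternatives, 453 counts and medians of members kept within the margins, and 25 moved, 14 became larger, 46 smaller and 2 reversed; of the values of named genes, 4662 kept their call, 214 lost it, 78 gained it and 12 reversed. The cause was not tested in any case. Leaving out 1 library gave 74 to 81 depleted and 1 to 2 enriched members for YTHDF1 against input (median -2.80 to -2.06), 60 to 75 and 2 to 3 for YTHDF2 (-1.66 to -1.61) and 81 to 84 and 0 to 1 for YTHDF3 (-2.80 to -2.58). Between RIPs it gave 3 to 43 members lower and 0 higher in YTHDF1 than in YTHDF2 (median -0.99 to -0.26), 1 to 24 higher and 0 to 3 lower in YTHDF1 than in YTHDF3 (0.02 to 0.74) and 9 to 43 higher and 0 lower in YTHDF2 than in YTHDF3 (0.97 to 1.21).

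With the trend on exonic length removed, without and with the replicate block, the medians against input were -1.42 and -1.48 for YTHDF1, -1.11 and -1.12 for YTHDF2, and -2.04 and -2.05 for YTHDF3 (0 enriched both ways), and 0.87 and 0.88 for YTHDF2 against YTHDF3. With the trend on mRNA length removed, added after seeing the data, the same pairs of values were -0.63 and -0.64, with 47 and 47 depleted and 5 and 5 enriched, for YTHDF1, -0.68 and -0.66, with 44 and 41 depleted, for YTHDF2, and -0.99 and -0.99, with 3 and 3 enriched, for YTHDF3. Between RIPs they left 2 and 3 lower in YTHDF1 than in YTHDF2 (median reversed to 0.02 without the block), 5 higher in YTHDF1 than in YTHDF3 with the block, and 11 and 9 higher and 1 and 1 lower in YTHDF2 than in YTHDF3 (0.45 and 0.44). They reversed, in YTHDF1, Ndufaf7 (0.47 and 0.48), Ndufv1 (0.53 and 0.53), Atp5k (0.66 and 0.62), Ndufaf1 (0.62 and 0.62) and Mdh2 (0.04 and 0.04), and in YTHDF2 Atp5g3 (0.10 and 0.07).

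Library size alone, which moved the median of all genes to -0.38, 0.09 and 0.38 against input, gave 1 enriched in YTHDF1, a median of -1.55 in YTHDF2, and 3 enriched and -2.34 in YTHDF3. Between RIPs it gave 40 lower in YTHDF1 than in YTHDF2, 1 higher and 8 lower in YTHDF1 than in YTHDF3 (median reversed to -0.21, with all genes at -0.54), and a median of 0.84 in YTHDF2 against YTHDF3. TMM over protein-coding genes gave 1 enriched in YTHDF1, -1.73 in YTHDF2 and 3 higher in YTHDF1 than in YTHDF3. TMM before the filter gave -1.72 in YTHDF2, 3 higher in YTHDF1 than in YTHDF3 and 0.86 in YTHDF2 against YTHDF3. No filter gave 1 enriched in YTHDF1, -1.72 in YTHDF2, 0 enriched in YTHDF3 and 0.86 in YTHDF2 against YTHDF3. A minimum mean of 50 left 4 higher in YTHDF1 than in YTHDF3, and leaving out the assembly factors moved the YTHDF2 median to -1.71.

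In fits of 2 groups alone, YTHDF1 had 1 enriched, 4 lower than YTHDF2, and 1 higher and 0 lower than YTHDF3. With the replicate block added these were 1, 11, 0 and 0, YTHDF2 had 18 higher than YTHDF3, and YTHDF3 had 2 enriched and 85 depleted against input. The last was the one comparison whose equal replicate numbers all correlated above the cut-off. Where equal numbers were not shown to pair the libraries, a block result says nothing on the strength of an effect. The block in the fit of all 12 libraries changed no count of members beyond the margin.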
